A study of Mus musculus with 16 samples.

Results

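The regions described here are stretches of chromatin away from gene ends that carried a peak of H3K27ac, acetylation of lysine 27 of histone H3, in every one of 4 peak lists. CJ9 mouse embryonic stem cells were directed for 5 days to endoderm or to mesoderm, either as wild-type cells (WT) or as cells labelled arid4b∆, written arid4b-delta here. The study profiled H3K27ac, H3K4me3 and H3K27me3 by ChIP-seq, in which DNA bound to a marked histone is pulled down with an antibody and sequenced, with 1 library per mark, lineage and genotype. CJ9 is the parent line of all groups, and all cells were fixed in formaldehyde for 8 min. Neither the extent of the Arid4b deletion nor whether arid4b-delta is 1 clone is given in the labels. Peaks of the 4 H3K27ac lists that overlapped by at least 1 bp were merged, which gave 45330 regions. Of these, 32748 lay more than 2500 bp from both ends of every protein-coding gene (build mm10, RefSeq gene table), and 1366 of the 32748, or 4.17%, touched a peak of all 4 lists. These 1366 are called the shared distal regions. They were 28.4% of the distal regions with a peak in WT endoderm and 39.5% in WT mesoderm. The shares for arid4b-delta were 5.20% (endoderm) and 12.3% (mesoderm). The choice used the H3K27ac peaks themselves, so the H3K27ac values below are descriptions, and with 1 library per group no difference was tested and no p-value is given. Sequencing depth is unknown from peak lists. Exact Clopper-Pearson 95% intervals stand beside shares and cover counting error only.

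H3K27ac is laid down by the acetyltransferases p300 and CBP and is found at active promoters and active enhancers, the elements that raise transcription from a distance. H3K4me3 is found mainly at promoters with an open start site, and H3K27me3 is the mark left by Polycomb repression. ARID4B belongs to the Sin3 corepressor, whose deacetylases HDAC1 and HDAC2 take acetyl groups off histone tails. Distal H3K27ac in embryonic stem cells and their early derivatives is known for differing widely between cell types, more so than H3K27ac at promoters.

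Many of the shared distal regions lay at annotated transcript starts. A gene can start at several places, and the distance rule counts only the outermost ends of protein-coding genes. A RefSeq transcript start lay within 1000 bp of 411 of the 1366 regions (30.1%, 27.7 to 32.6), where 4.13% of all distal H3K27ac regions had one. Of the 411 regions, 283 were near a start of a protein-coding gene and 164 near a start of a long noncoding RNA. The 250 bases before the start are shown for 4 genes whose regions were among the best ranked in all 4 lists, since these windows lie inside the regions. Capitals mark GGGCGG (the GC box) and CCAAT (the box bound by NF-Y) on either strand, CCGCCC and ATTGG being the same boxes on the other strand, and the letters run 5′ to 3′ on the gene's strand (RefSeq, GRCm38.p6).
Kansl1 (chr11:104442292-104442541, minus strand): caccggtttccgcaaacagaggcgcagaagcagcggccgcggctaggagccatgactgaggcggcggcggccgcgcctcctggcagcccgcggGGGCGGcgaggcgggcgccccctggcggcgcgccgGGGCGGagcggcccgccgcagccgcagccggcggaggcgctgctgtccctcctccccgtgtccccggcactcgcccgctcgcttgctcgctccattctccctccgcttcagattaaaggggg
Nfyc (chr4:120825210-120825459, minus strand): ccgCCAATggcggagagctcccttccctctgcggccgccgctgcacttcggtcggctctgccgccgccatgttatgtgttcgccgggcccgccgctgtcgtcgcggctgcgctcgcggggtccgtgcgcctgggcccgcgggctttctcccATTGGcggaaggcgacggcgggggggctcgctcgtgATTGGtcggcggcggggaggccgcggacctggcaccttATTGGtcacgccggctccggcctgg
Robo1 (chr16:72662899-72663148, plus strand): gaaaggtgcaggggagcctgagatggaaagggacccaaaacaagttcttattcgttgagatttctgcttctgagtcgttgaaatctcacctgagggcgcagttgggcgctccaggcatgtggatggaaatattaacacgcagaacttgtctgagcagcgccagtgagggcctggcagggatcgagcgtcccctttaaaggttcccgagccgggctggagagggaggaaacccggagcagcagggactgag
Stag1 (chr9:100643198-100643447, plus strand): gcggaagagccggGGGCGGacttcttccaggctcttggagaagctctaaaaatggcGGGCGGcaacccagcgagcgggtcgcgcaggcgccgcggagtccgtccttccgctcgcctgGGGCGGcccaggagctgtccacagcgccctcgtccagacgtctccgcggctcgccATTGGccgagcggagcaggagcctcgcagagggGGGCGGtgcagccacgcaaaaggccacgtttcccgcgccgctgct
Kansl1 encodes the scaffold of the NSL histone acetyltransferase complex, Nfyc a subunit of the CCAAT-binding factor NF-Y, Robo1 a receptor for Slit guidance cues, and Stag1 a cohesin subunit. Kansl1 held 2 GC boxes and 36 CG pairs, Nfyc 4 CCAAT boxes and 37 CG pairs, and Stag1 4 GC boxes, 1 CCAAT box and 31 CG pairs. Robo1 held 11 CG pairs and neither box. Stag1 was chosen after its values were seen.

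Starts inside the shared distal regions were rich in CG pairs. RefSeq windows of 250 bases were read for 261 starts of 215 genes that lay inside a region. At least 10 CG pairs were present in 75.5% of them (69.8 to 80.6), in 49.5% (42.2 to 56.8) of 190 starts inside distal regions of 1 to 3 lists, and in 37.8% of all 32851 RefSeq windows. GGGCGG was present in 57.1% of the 261 windows (50.8 to 63.2) and in 32.7% of all windows. For CCAAT the shares were 26.4% (21.2 to 32.2) and 33.8%, and for TATAAA 6.90% (4.14 to 10.7) and 12.4%. Thus the GC box was more common in these windows than in all windows, and CCAAT and TATAAA were less common. In the windows of distal regions of 1 to 3 lists CCAAT was at 28.4% (22.1 to 35.4) and TATAAA at 5.79% (2.93 to 10.1). In those of all 4 lists near a gene end they were at 32.3% and 4.47%. The low share of TATAAA was therefore not particular to the shared distal regions. The palindromic NRF1 motif was in 0.766% of the 261 windows and 0.782% of all, and CCGGAAGT (an ETS motif) in 3.07% and 2.88%, both close to the share of all windows. All motifs were sought on both strands. Starts inside regions of all 4 lists near a gene end held at least 10 CG pairs in 89.3% (88.0 to 90.5) of 2396 windows and GGGCGG in 65.7% (63.8 to 67.6).

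Some members lay at microRNA genes, which the distance rule does not count. A microRNA hairpin lay within 500 bp of 9 members, or 0.659% (0.302 to 1.25), against 0.0672% of all distal regions (22 of 32748). Regions of all 4 lists within 2500 bp of a gene end had 1.20% (0.898 to 1.56), so this was not particular to the shared distal regions. The clusters named here are placed by their hairpins, not by the starts of their primary transcripts. The miR-302/367 cluster lay whole inside the shared distal region chr3:127545064-127546377, and let-7i inside chr10:122985317-122986746. The miR-17-92 cluster began 724 bp from chr14:115041318-115042947, the miR-106a-363 cluster 1541 bp from chrX:52744108-52744933, and the miR-290-295 cluster, abundant in pluripotent cells, 10972 bp from chr7:3206727-3207654. The mature sequences are grouped by seed, bases 2 to 8 in capitals, which sets most of a microRNA's target choice (RefSeq, GRCm38.p6).
miR-302b-3p: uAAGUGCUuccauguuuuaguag
miR-302d-3p: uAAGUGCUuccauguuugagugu
miR-294-3p: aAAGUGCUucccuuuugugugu
miR-295-3p: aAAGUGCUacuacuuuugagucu
miR-17-5p: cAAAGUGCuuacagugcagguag
miR-20a-5p: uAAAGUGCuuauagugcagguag
miR-106a-5p: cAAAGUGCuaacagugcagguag
miR-367-3p: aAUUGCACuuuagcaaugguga
miR-92a-3p: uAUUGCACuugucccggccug
miR-363-3p: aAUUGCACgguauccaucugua
let-7i-5p: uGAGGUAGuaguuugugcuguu
The seed AAGUGCU was shared by miR-302b, miR-302d, miR-294 and miR-295, AAAGUGC by miR-17, miR-20a and miR-106a, and AUUGCAC by miR-367, miR-92a and miR-363. These seeds recurred in the named clusters on different chromosomes. Other microRNAs of the clusters had other seeds, such as miR-302c-3p (AGUGCUU) and miR-293-3p (GUGCCGC), and are not shown. Of all 1005 hairpins, 78 (7.76%, 6.18 to 9.59) lay within 20000 bp of a member, so the recurrence is not read as a trait of the members. These clusters were chosen after their positions were seen.

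At the microRNA regions the order of the libraries differed from region to region. Folds (peak over background) come from the authors' peak caller and depend on each library's background. Regions are therefore set beside each other through places, the order of the 1366 by fold within 1 library, with place 1 the highest. The miR-302/367 region (nearest gene end Larp7, 6972 bp) had folds of 11.3 in WT endoderm, 5.69 in arid4b-delta endoderm, 11.4 in WT mesoderm and 10.2 in arid4b-delta mesoderm, at places 455, 1188, 353 and 864. It stood higher among the regions in the WT library of both lineages. The let-7i region (nearest gene end Mon2, 5314 bp) had folds of 14.1, 33.9, 34.5 and 36.8 in the same order, at places 255, 47, 10 and 22, with WT endoderm the lowest. The region beside miR-290-295 (nearest gene end Nlrp12, 10989 bp) had folds of 8.00, 13.2, 5.53 and 17.0, at places 821, 426, 1043 and 327, and stood higher in the arid4b-delta library of both lineages. The region beside miR-17-92 (nearest gene end Gpc5, 49254 bp) had folds of 7.42, 9.63, 16.3 and 17.3, at places 908, 722, 162 and 311, and stood higher in the mesoderm libraries. H3K4me3 was present in all 4 libraries at the miR-302/367, let-7i, miR-17-92 and miR-106a-363 regions and in 1 library at the miR-290-295 region.

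The lineage label of the libraries was checked against marker genes, by H3K27ac within 1000 bp of either end of the gene. Of 26 mesoderm genes, 8 carried it in WT mesoderm, 1 in arid4b-delta mesoderm and 0 in both endoderm libraries, with T and Pdgfra marked in WT mesoderm alone of the 4 libraries. Of 23 endoderm genes, 6 carried it in WT endoderm, 4 in arid4b-delta endoderm, 3 in WT mesoderm and 5 in arid4b-delta mesoderm. Sox17, Foxa2, Gata4 and Gata6, which define endoderm, carried it in none of the 4 libraries, nor did the mesoderm genes Mesp1 and Kdr, while Pou5f1, the core pluripotency factor, carried it in all 4. Of 11 fibroblast genes, which feeder cells would express, 0 to 2 carried it per library. H3K27ac lists held 14216, 35884, 12496 and 22747 peaks in WT endoderm, arid4b-delta endoderm, WT mesoderm and arid4b-delta mesoderm.

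The shared distal regions were the widest of the distal regions. Their median width was 780 bp (95% interval of the median 750 to 812, interquartile range 507 to 1267, range 202 to 14719). The medians were 600 bp for 1936 distal regions of 3 lists, 394 bp for 4911 of 2 lists and 180 bp for 24535 of 1 list. The 4425 regions of all 4 lists within 2500 bp of a gene end had a median of 658 bp. Merging more lists widens a region by itself, so the part each library covered is the closer measure. It had a median of 500 bp in WT endoderm, 511 bp in arid4b-delta endoderm, 424 bp in WT mesoderm and 612 bp in arid4b-delta mesoderm, where the median peak of the whole list was 274, 216, 294 and 264 bp. A single peak made up that part in 72.0%, 76.7%, 80.8% and 75.5% of the regions. All 4 lists shared at least 1 base in 1300 regions (95.2%), with a median of 258 shared bases.

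**Figure D1:**
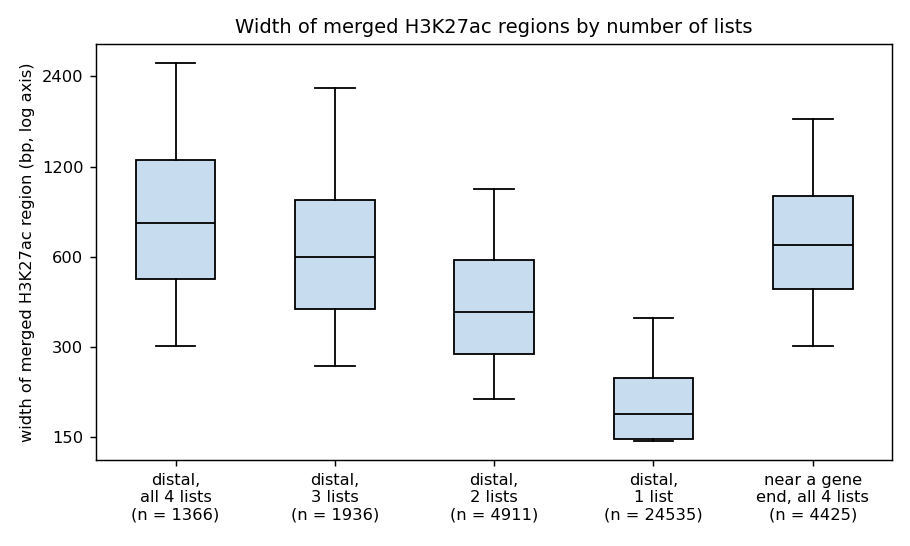
Width in bp (log axis) of merged H3K27ac regions. Boxes span the interquartile range around the median, whiskers the 5th to 95th percentile, and n counts regions; the distal regions of all 4 lists have the highest median, 780 bp, and those of 1 list the lowest, 180 bp.

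The distance rule had no gap in the data around it. The members nearest to the limit were the regions beside Bcl2l1, 2513 bp from its end, and Huwe1, 2526 bp. Just short of it lay regions of all 4 lists beside Axin2, 2497 bp from its end, and Nudt19, 2479 bp. Each of the 4 overlapped H3K4me3 in all 4 libraries and lay near a RefSeq start of the named gene. The median distance of the members to the nearest gene end was 16945 bp, with 471 regions within 10000 bp, 561 between 10000 and 50000 bp, 172 between 50000 and 100000 bp and 162 farther away. Distal regions of 1 list had a median distance of 55832 bp. Members often lay side by side, with 112 neighbouring pairs up to 500 bp apart and 198 up to 10000 bp apart, so they are not independent of each other. A protein-coding gene held 658 of them (48.2%, 45.5 to 50.9), against 30.1% of all distal regions. The share was as high in distal regions of WT mesoderm only (50.04%) and WT endoderm only (47.7%), so it is not particular to the shared regions. Whether a region is exonic or intronic was not determined.

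Few of the shared distal regions ranked high in every list. A rank is given as the percent of the list with an equal or higher fold, so that a small value is a strong peak of its library. The median rank was 29.4% in WT endoderm, 13.4% in arid4b-delta endoderm, 43.6% in WT mesoderm and 16.9% in arid4b-delta mesoderm, but the arid4b-delta lists are longer and hold more weak peaks, so these values do not compare genotypes. In the upper 10% of the list lay 241, 576, 144 and 439 regions in the same order, and 82 lay there in all 4. The worst of a region's 4 ranks had a median of 57.5%. The 4425 regions of all 4 lists near a gene end ranked at a median of 24.4%, 13.9%, 23.2% and 16.04%, so the distal regions ranked lower than these in both WT lists and about level with them in both arid4b-delta lists.

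**Figure D2:**
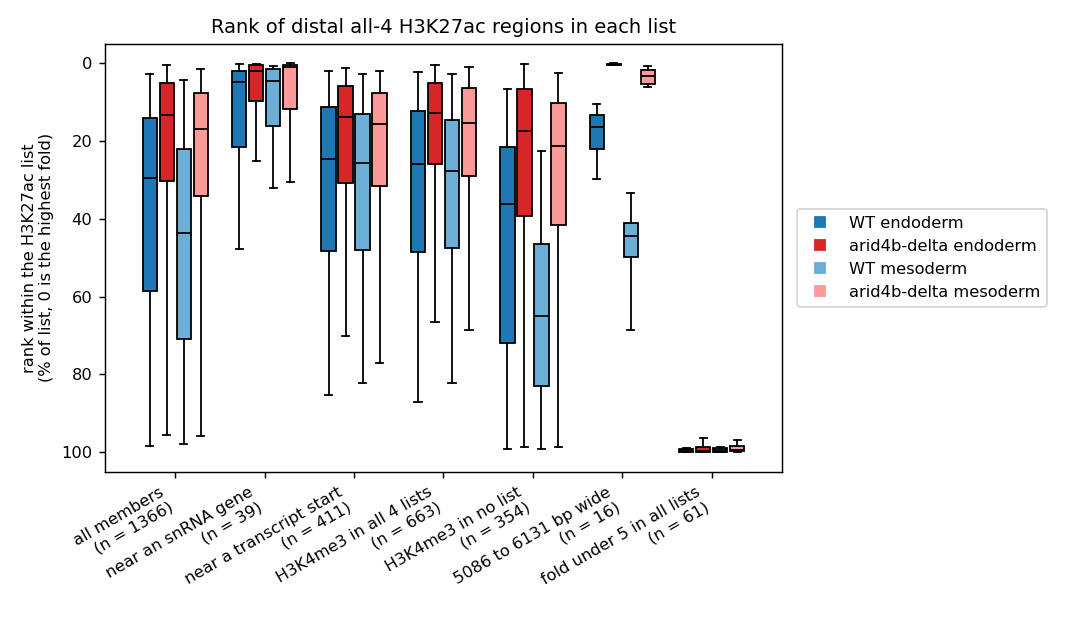
Rank within each H3K27ac list (percent of the list, 0 is the highest fold) of the shared distal regions and of classes of them. Boxes span the interquartile range around the median, whiskers the 5th to 95th percentile; the median of regions near snRNA genes lies at 4.83%, 2.05%, 4.72% and 1.15% of the 4 lists, and the 61 regions of low fold sit at the bottom.

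The best ranked regions lay at small nuclear RNA genes and at internal starts of coding genes. The region of best worst rank, 0.373%, was chr11:101640996-101641905, over an snRNA gene 4907 bp from the end of Rdm1, with folds of 31.0 in WT endoderm, 37.0 in arid4b-delta endoderm, 40.1 in WT mesoderm and 59.3 in arid4b-delta mesoderm. It stood at places 8, 35, 4 and 2, high in every library. The Kansl1 region shown above, chr11:104440992-104443207, had folds of 38.1, 41.6, 44.2 and 39.2 at places 4, 14, 2 and 15. The Nfyc region, chr4:120824914-120825788, had folds of 48.6, 28.1, 47.4 and 48.2 at places 2, 79, 1 and 5, with arid4b-delta endoderm the lowest. Next came an snRNA gene beside Trappc6b (a vesicle tethering factor) and Rnu2-10, a U2 snRNA gene beside Arl4d, at worst ranks of 1.10% and 1.28%. Robo1, Clasp1 (a microtubule plus-end protein) and Impact (a regulator of translation) followed at 1.64%, 1.98% and 2.03%, each inside the named gene and with H3K4me3 in all 4 libraries. Another region of the first 10 lay over an snRNA gene beside a gene with no proper name.

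Genes annotated as small nuclear RNA (snRNA) stood out over the whole set. These RNAs form the splicing machinery or, as U3, process ribosomal RNA, and their genes have their own promoters. A gene annotated as snRNA lay within 500 bp of 39 regions (2.86%, 2.04 to 3.88), against 0.192% of all distal regions, and 24 of the 39 ranked in the upper 10% of all 4 lists. Their median worst rank was 6.47%, against 57.5% for all members. The 6 regions nearest to Tex14 were all of this kind, over Rnu1a1, an unnamed gene and the U3 genes Rnu3b1, Rnu3b3, Rnu3b4 and Rnu3b2. The Rnu3b2 region had folds of 19.6, 26.1, 31.6 and 51.7 in WT endoderm, arid4b-delta endoderm, WT mesoderm and arid4b-delta mesoderm, at places 90, 100, 18 and 4. Both mesoderm libraries had it higher than both endoderm libraries. Others lay over Rnu1b1, Rnu1b2 and Rnu1b6 (U1), Rnu11 (U11), Rnu5g (U5) and Rn7sk, the RNA that holds P-TEFb inactive. H3K4me3 was present in all 4 libraries at 14 of the 39 and in none at 6. These genes have near-identical copies, so reads may not be told apart between them and their values are uncertain. A tRNA gene lay within 500 bp of 23 regions (1.68%, 1.07 to 2.52), against 0.214% of all distal regions, and H3K4me3 was in all 4 libraries at 21 of them. Distal regions of 3 lists had 0.826% (0.473 to 1.34). Those of WT of both lineages without arid4b-delta had 2.26% (0.468 to 6.45, 3 of 133). A tRNA share above that of all distal regions was therefore not particular to the shared regions. Genes annotated as small nucleolar RNA lay within 500 bp of only 6 regions (0.439%, 0.161 to 0.954), against 0.131% of all distal regions. Regions of all 4 lists near a gene end had 0.927%. Terc, the RNA of telomerase, and Rny1 also lay by a member. Of the 50 regions of best worst rank, 17 lay near an snRNA gene, 20 near a transcript start and 35 near either.

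H3K4me3, which took no part in the choice, covered most of the shared distal regions. It was present in at least 1 of its 4 lists at 1012 regions (74.1%, 71.7 to 76.4), against 15.3% of all distal H3K27ac regions. All 4 H3K4me3 lists had a peak at 663 regions (48.5%, 45.9 to 51.2), against 4.98%, and no list had one at 354 (25.9%, 23.6 to 28.3). By library, H3K4me3 overlapped 747 regions in WT endoderm, 905 in arid4b-delta endoderm, 735 in WT mesoderm and 945 in arid4b-delta mesoderm, with the arid4b-delta libraries higher in both lineages. Their H3K4me3 lists were also the longer ones, at 25272 against 22292 peaks in endoderm and 26852 against 21752 in mesoderm, and the part of list length in this was not tested. At least 1 list had H3K4me3 at 30.4% of distal regions in 3 H3K27ac lists, 36.8% in 2 and 6.61% in 1. Regions of all 4 lists near a gene end had it at 99.1%.

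**Figure D3:**
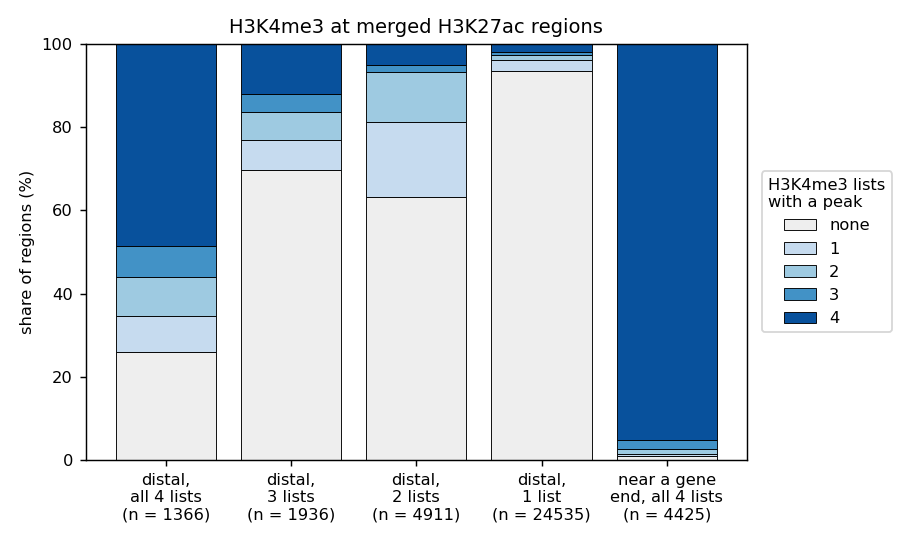
Share (%) of merged H3K27ac regions with a peak in none, 1, 2, 3 or 4 of the H3K4me3 lists, for distal regions by number of H3K27ac lists and for regions near a gene end. All 4 H3K4me3 lists have a peak at 48.5% of the distal regions of all 4 lists and at 95.2% of the regions of all 4 lists near a gene end.

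Width was compared within bins. Among shared distal regions of up to 500 bp, 77.1% (72.2 to 81.5) had H3K4me3 in at least 1 list, against 36.5% (33.1 to 40.1) of distal regions of that width in 3 lists. From 500 to 1000 bp the shares were 75.6% and 27.2%, from 1000 to 2000 bp 73.8% and 23.4%, and above 2000 bp 63.1% and 29.5%. Distal regions of 2 lists had 26.9% up to 500 bp and 52.8% from 500 to 1000 bp, but 75.1% (69.2 to 80.4) of 245 regions from 1000 to 2000 bp and 7 of 12 above. Up to 1000 bp the shared regions had the highest share of H3K4me3 in at least 1 list. From 1000 to 2000 bp that share did not differ from regions of 2 lists beyond counting error. H3K4me3 in all 4 lists did differ in that bin. It was at 44.3% (38.9 to 49.8) of shared regions and 3.27% (1.42 to 6.33) of regions of 2 lists. Transcript starts moved with the mark: a start lay within 1000 bp of 52.6% (48.8 to 56.5) of the 663 regions with H3K4me3 in all 4 libraries and of 5.08% (3.04 to 7.92) of the 354 with none. Even so, 288 regions had H3K4me3 in all 4 libraries and neither a start nor a small RNA gene nearby. Without regions near a start or a small RNA gene, 903 regions remained, of which 63.6% had H3K4me3 in at least 1 list.

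Members without H3K4me3 ranked lower, with a median worst rank of 72.8% against 42.4% where all 4 libraries had the mark. Their median merged width was 866 bp against 732 bp, but the stretch common to all 4 lists was shorter, 195 bp against 274 bp. The best ranked of them lay inside Ccnd3, which encodes cyclin D3 (chr17:47521305-47522804, 16254 bp from the gene end), with folds of 14.4 in WT endoderm, 11.3 in arid4b-delta endoderm, 16.8 in WT mesoderm and 17.0 in arid4b-delta mesoderm. Its places were 240, 569, 152 and 328, higher in the WT library of each lineage. Next were regions inside Nwd1, Zmynd8 (a reader of acetylated histones) and Sulf1 (a heparan sulfate sulfatase) and beside Frmd8, with worst ranks of 11.5%, 18.8%, 19.3% and 21.1%. None of the 50 best ranked members was without H3K4me3, and 40 had it in all 4 libraries.

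H3K27me3 lay in at least 1 library at 162 shared distal regions (11.9%, 10.2 to 13.7), near the 12.5% of all distal regions. Of these, 61 were regions of low fold, under 5 in every H3K27ac list, with folds from 1.62 to 4.81. All 61 touched H3K27me3, 41 of them in all 4 libraries, and 1 of them had H3K4me3 in all 4. What sequence the 61 hold was not determined, so whether their reads can be told apart from copies elsewhere is not known. The overlap is therefore not read as both marks lying together. Their median ranks lay between 99.3% and 99.6% of each list. At the start of chromosome 9, 7 such regions filled 2999979 to 3038357, the largest 14719 bp wide, the widest of all members. Another 4 lay on chromosome 2 between 98662181 and 98667382, nearest to Lrrc4c. The region chr2:98666181-98667382 had folds of 2.16, 3.85, 2.40 and 4.13 in WT endoderm, arid4b-delta endoderm, WT mesoderm and arid4b-delta mesoderm, at places 1320, 1320, 1322 and 1306, at the foot of every library. Without the 61, H3K27me3 was present at 101 regions, or 7.74%. All 4 libraries had H3K27me3 at 70 members (5.12%, 4.02 to 6.43), against 1.67% of all distal regions. Distal regions of 3 H3K27ac lists had 3.10%. Of the 70 members, 29 were not of low fold. The best ranked members with H3K27me3 and a named gene were those at Impact, Mid1 (a ubiquitin ligase) and Pum2 (a translational repressor), with worst ranks of 2.03%, 5.15% and 12.3%. Mid1 had 6 members within chrX:170000959-170011104, and the last of them held H3K4me3 in all 4 libraries and H3K27me3 in 3. A gene with a predicted symbol on chromosome Y also had 6 members, within chrY:90766652-90786151. Whether these stretches share sequence, so that their reads cannot be told apart, was not determined.

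The members had 1074 different nearest genes, 4.91% of 21887 protein-coding genes, and 206 of these genes were nearest to more than 1 region. An end within 50000 bp of a member was found for 2053 genes (9.38%). H3K27ac within 1000 bp of either end of the gene was sought in each list. All 4 lists had it at 27.3% (24.6 to 30.1) of the 1074 genes and at 19.9% of all genes. The end could be the start or the far end and could differ between lists, so these are not promoter shares. The share was 23.5% (21.3 to 25.8) for genes nearest to distal regions of 3 lists, 17.6% for 2 lists and 18.4% for 1 list. For regions of WT endoderm only it was 24.5% (21.5 to 27.6) and for WT of both lineages without arid4b-delta 32.5% (24.4 to 41.6), so a share above that of all genes was not particular to the shared regions. The genes with most members were of different kinds. Chd2, a chromatin remodeller, had 5, all with H3K4me3 in all 4 libraries, and 2 of these lay at starts of Chaserr, the noncoding RNA upstream of Chd2. The highest of the 5, chr7:73616496-73618387, had folds between 18.5 and 22.4 and stood at places 96, 211, 106 and 145 in WT endoderm, arid4b-delta endoderm, WT mesoderm and arid4b-delta mesoderm, within the first 211 in each library. Zmynd8 had 6 members, Ptma (prothymosin alpha) 5, Dlgap1 (a synaptic scaffold) 5, and Bahcc1 and Ppp2r5c (a regulatory subunit of protein phosphatase 2A) 4 each. The 7 nearest to Alkbh8 and the 4 nearest to Lrrc4c were all of the low-fold kind. The noncoding RNAs Malat1 and Snhg15 also started at members, at worst ranks of 13.4% and 9.45%, chosen after their values were seen.

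Of 341 listed genes in 18 lists, 48 (14.1%) were nearest to a member, against 4.91% of all genes. General pluripotency genes had 8 of 21: Sall4, Lin28b, Trim71, Zfp281, Mycn, Mycl, Jarid2 and Tet1. Naive pluripotency genes had 2 of 16, Klf2 and Nanog, and primed epiblast genes 3 of 12, Otx2, Pou3f1 and Sall2. Of the lineage lists, endoderm had 2 of 23 (Epcam and Cdh1, which most epithelial cells also express), mesoderm 3 of 26 (Meis1, Dll1 and Pax2, the nearest of their regions 53302 bp away), neuroectoderm 2 of 20 (Sox1 and Olig2), extraembryonic endoderm 1 of 13 (Lama1), and primitive streak 0 of 20. Trophoblast and fibroblast genes had 0 of 10 and 0 of 11. Counted instead by an end within 50000 bp of a member, endoderm had 5 of 23 and mesoderm 0 of 26. Actin cytoskeleton and adhesion genes had 9 of 24, among them Actn1, Flna, Myh9, Tpm1, Itgb1, Cd9, Ezr and Tns3. Immediate early genes had 4 of 23 (Fosb, Jun, Ier2 and Ier5), signalling genes 3 of 32 (Tcf7l1, Fgfr1 and Spry2), Myc and growth genes 3 of 18 (Mycn, Ccnd3 and Igf2bp1), nucleosome and DNA methylation regulators 3 of 18 (Tet1, Kdm4c and Arid1a), Polycomb components 3 of 24 (Pcgf2, Phc1 and Rybp) and housekeeping genes 3 of 20 (Ywhaz and Ldha among them). The Sin3-HDAC complex, to which ARID4B belongs, had 1 of 19, Sin3a, whose region covered an internal start of Sin3a.

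Nanog, a core factor of naive pluripotency, had 1 member 4266 bp from its end, chr6:122702328-122703223, with no H3K4me3 in any library. Its folds were 9.74 in WT endoderm, 5.90 in arid4b-delta endoderm, 7.75 in WT mesoderm and 6.13 in arid4b-delta mesoderm, at places 611, 1168, 677 and 1239. In both lineages it stood higher among the members in WT. The gene's own ends carried H3K27ac in WT endoderm and arid4b-delta mesoderm and not in the other 2 libraries. Klf2, another naive factor, had a member 231 bp wide with folds of 8.56, 15.5, 13.0 and 8.19, at places 749, 303, 273 and 1066, with no common order of genotypes over the lineages. Sall4, a zinc finger factor of stem cells, had 3 members and Zfp281, a regulator of the exit from pluripotency, 3. Of the Sall4 regions, the one 23464 bp away had the best worst rank, with folds of 8.86, 7.89, 7.90 and 11.6. Its places were 722, 929, 641 and 726, lowest in arid4b-delta endoderm.

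The 66 regions nearest to listed genes showed no common order of the genotypes. Of the 66, 21 (31.8%) stood at a higher place in arid4b-delta in both lineages, 21 (31.8%) in WT in both and 24 had no common order, where the counts over all 1366 members were 367 (26.9%), 465 (34.0%) and 534. Primed epiblast genes had 4 of 5 regions higher in arid4b-delta in both lineages, general pluripotency genes 5 of 13 and mesoderm genes 2 of 4. Endoderm genes had 1 of 5, the other 4 being higher in WT in both. The lists hold few regions each. All 3 regions nearest to Pou3f1, a POU factor of the primed epiblast, were of the first kind, but they lay 301553, 299037 and 171136 bp away, and those at 301553 and 171136 bp lay within 1000 bp of starts of long noncoding RNAs. They had places of 322, 102, 1023 and 119 in WT endoderm, arid4b-delta endoderm, WT mesoderm and arid4b-delta mesoderm, of 902, 141, 578 and 120, and of 1126, 1008, 1257 and 639. Both regions nearest to Meis1, a homeobox gene of early mesoderm, 389539 and 394198 bp away, were also higher in arid4b-delta in both lineages. The farther one, chr11:19413849-19416274, had folds of 11.7, 37.6, 6.95 and 31.6 at places 420, 31, 794 and 37. Olig2, a neural factor, had a region at places 763, 118, 773 and 377, with the same order. Of the 3 regions inside Cdh1 (E-cadherin), all without H3K4me3, 2 stood higher in WT in both lineages, at places 296, 822, 550 and 588 and at 1017, 1123, 839 and 1001. The other Cdh1 region, at 769, 709, 1073 and 940, stood higher in arid4b-delta. The Igf2bp1 region, a growth gene's, and the Ywhaz region, a housekeeping gene's, had worst ranks of 7.39% and 4.38%, the best of the listed genes.

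**Figure D4:**
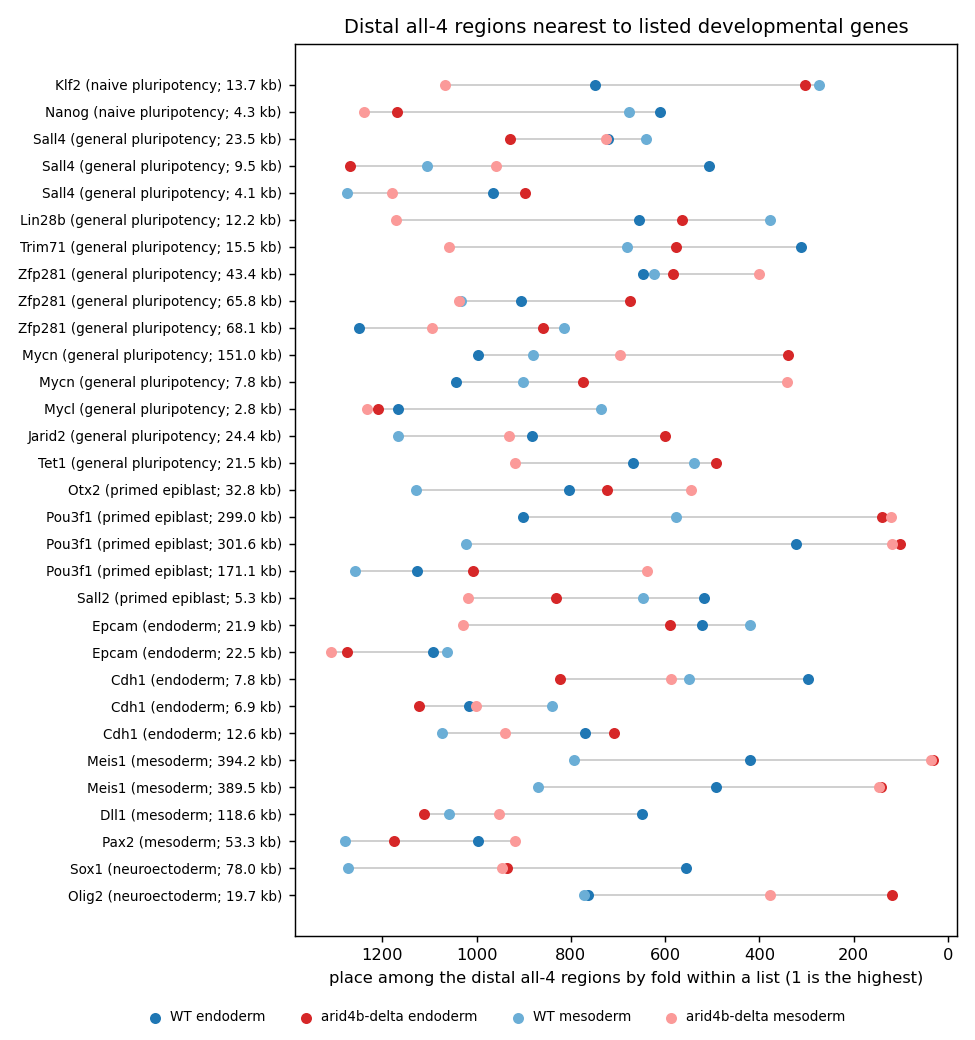
Place among the 1366 shared distal regions, by fold within each H3K27ac list (1 is the highest), for regions nearest to genes of the pluripotency, primed epiblast, endoderm, mesoderm and neuroectoderm lists; labels give the list and the distance to the gene end. Points are the 4 libraries, 1 per group, and grey lines join the lowest and highest place; the Meis1 region farther from the gene sits at places 420 and 794 in WT and 31 and 37 in arid4b-delta.

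Actin and adhesion genes had 13 regions, 4 higher in arid4b-delta in both lineages, 4 in WT and 5 with no common order. Itgb1 (integrin beta 1) had a region at chr8:128746387-128748874 with folds of 13.3, 42.8, 6.93 and 29.6 in WT endoderm, arid4b-delta endoderm, WT mesoderm and arid4b-delta mesoderm, at places 298, 10, 798 and 60. It stood higher in arid4b-delta in both lineages, as did the other Itgb1 region. Flna (filamin A) had a region over an internal start at places 719, 1133, 256 and 1075, higher in WT in both. Ezr (ezrin) had 2 regions, and the wider one stood at places 99, 149, 286 and 305, high in all 4. The immediate early genes Fosb and Ier2 had regions with H3K4me3 in all 4 libraries, at places 554, 984, 716 and 922 and at 519, 1010, 522 and 707, and both stood higher in WT in both lineages. Jun, 209877 bp away, had one at 1290, 407, 1082 and 995, lower in WT. Which of the listed genes are given with values was chosen after their values were seen.

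Over all members, the orders of the 2 genotypes resembled each other no more than those of the 2 lineages. Spearman's rho of folds over the 1366 regions was 0.53 between WT and arid4b-delta endoderm and 0.46 between WT and arid4b-delta mesoderm. It was 0.53 between the WT libraries and 0.73 between the arid4b-delta libraries. WT endoderm and arid4b-delta mesoderm gave 0.62, and arid4b-delta endoderm and WT mesoderm 0.29. The points share libraries and neighbouring regions, and the spread between libraries of 1 group is not known. A region stood at least 341 places higher in arid4b-delta for 231 members (16.9%) in endoderm and 272 (19.9%) in mesoderm, and in WT for 232 (17.0%) and 266 (19.5%). A higher place of any size in arid4b-delta was found for 45.9% of members in endoderm and 46.8% in mesoderm. In both lineages, 110 stood that much higher in arid4b-delta and 72 in WT, while 39 did so in opposite directions.

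The shares differed between classes of regions. In mesoderm, 31.1% of the 354 regions without H3K4me3 stood at least 341 places higher in arid4b-delta and 11.6% in WT. Of the 663 regions with H3K4me3 in all 4 libraries, 9.20% stood that much higher in arid4b-delta and 27.5% in WT. Near a transcript start the shares were 6.08% and 29.0%. In endoderm they were 22.03% and 16.7% without H3K4me3, 13.6% and 17.6% with it in all 4 libraries, and 6.81% and 19.2% near a start. Regions with H3K4me3 in all 4 libraries but no start or small RNA gene nearby gave 22.2% and 15.6% in endoderm, close to those without H3K4me3, and 15.97% and 23.96% in mesoderm. Places are relative, and the room to move differed: the median WT mesoderm place was 956.5 without H3K4me3 and 437 with it in all 4 libraries, and its part in these shares was not tested.

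The regions whose place differed most between genotypes were of both kinds. In endoderm, the widest gap toward arid4b-delta was at chr2:144148970-144149707, nearest to Banf2, with folds of 4.01 in WT and 23.8 in arid4b-delta and places 1281 and 117. Regions nearest to Cfap20dc (places 1272 and 152), Pcdh15 (1210 and 108), Fundc1 (1273 and 178) and Akr1e1 (1140 and 51) came next among named genes. Higher in WT endoderm were regions inside Lrrc18 (places 153 and 1155), Clcn3 (347 and 1345), Ahi1 (373 and 1299) and beside Psmd12 (64 and 972) and Fgf21 (184 and 1081). In mesoderm, the regions higher in arid4b-delta were nearest to Cpa6 (places 1282 in WT and 157), Pcmtd1 (1267 and 135), Cfap20dc (1283 and 139), Tgif2lx1 (1298 and 103) and Epha6 (1263 and 55). All 5 were 2352 to 3126 bp wide, lay outside coding genes and had no H3K4me3 in any library. Those higher in WT mesoderm lay inside Ubxn6 (105 and 1201), Parp11 (180 and 1224), Sdk2 (167 and 1203), Ankrd24 (271 and 1265) and Usp54 (252 and 1235). These 5 were 344 to 1029 bp wide and had H3K4me3, in all 4 libraries at 4 of them. Between lineages of WT, regions at Nfasc, Zfhx3 and Gdf6 stood higher in endoderm (places 55, 63 and 37, against 1222, 1224 and 1142), and those at Ptp4a2, Csnk1e and Hsf2 in mesoderm (places 79, 216 and 102, against 1153, 1297 and 1215). Between lineages of arid4b-delta, regions at Bmf, Idh1 and Vmn1r253 stood higher in endoderm and those at Clcn3, Tlk2 and Sertad2 in mesoderm.

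The widest members shared a similar width. Apart from 3 low-fold regions at the start of chromosome 9, 16 members were at least 4500 bp wide, and their widths lay close together, from 5086 to 6131 bp with a median of 5590 bp. The widest lay nearest to Mki67, the gene of the proliferation antigen Ki-67, but 522890 bp from its end. They lay on 9 chromosomes at a median of 123148 bp from a gene end, and 13 had H3K4me3 in all 4 libraries and none was without it. The Sntb1 region, chr15:55871458-55877117, had folds of 15.7 in WT endoderm, 45.1 in arid4b-delta endoderm, 9.03 in WT mesoderm and 19.7 in arid4b-delta mesoderm, at places 190, 4, 525 and 212. The Atp11b region, chr3:35413593-35419350, 334694 bp from the gene end, had folds of 11.7, 43.9, 8.58 and 24.3, at places 423, 5, 577 and 106. Both stood higher in arid4b-delta. The width of the 16 came mainly from the arid4b-delta peaks: the part covered had a median of 5575.5 bp in arid4b-delta endoderm and 5145 bp in arid4b-delta mesoderm, but 2776.5 bp in WT endoderm and 1160 bp in WT mesoderm. A single peak made up the region at 13 of the 16 in arid4b-delta endoderm and at 0 in WT endoderm. Choosing by width therefore chose regions broad in arid4b-delta, and their places, with medians of 407 for WT against 35 for arid4b-delta in endoderm and 694 against 143 in mesoderm, are a description from which no direction is read. The class was drawn after the widths were seen, and what sequence these regions hold was not determined.

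**Figure D5:**
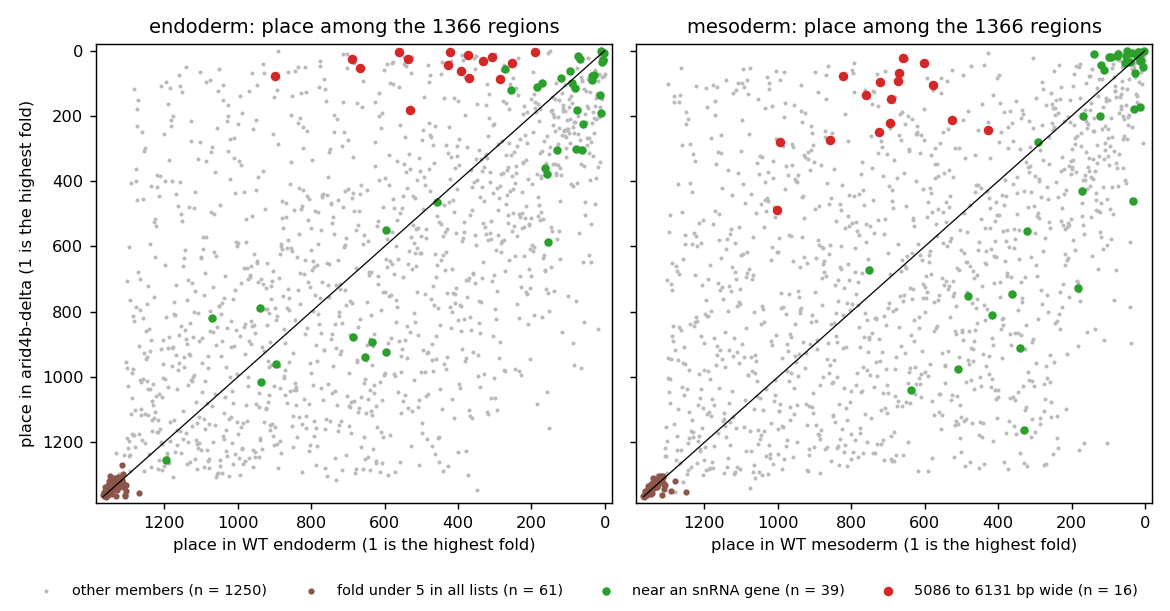
Place of each of the 1366 shared distal regions among all of them by fold (1 is the highest), in WT (horizontal axis) and arid4b-delta (vertical axis), for endoderm and mesoderm. Points on the line have equal places; the 16 regions of 5086 to 6131 bp all lie above it, and the 61 low-fold regions sit at the last places in both panels.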

How the data were processed

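Chromatin of 4 groups (2 lineages, 2 genotypes) was profiled for 3 histone marks, which gave 12 peak lists, 1 per library; the 4 input libraries have no file analysed here. Per the submitters' processing notes, Bowtie2, Picard and MACS2 were used on build mm10, with versions and settings not given in the sources used here. Peak names in the deposited files point to removal of duplicate reads, and replicates were not pooled. Each deposited list holds, per peak, the caller's score, the fold enrichment over background (a ratio), and −log10 p and −log10 q as the authors' caller gave them. The narrow lists also hold the summit position, which was not used. Depth is unknown from such lists.

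H3K27ac peaks sharing at least 1 bp were merged, and distances ran to the nearest end of 21887 protein-coding genes (RefSeq, GRCm38.p6). A mark was counted as present where 1 of its peaks overlapped a region by at least 1 bp. Low fold means under 5 in all 4 lists. With 1 library per group nothing was tested; the spread between libraries of a group is not known. Named regions follow a rule: the 10 of best worst rank, the 5 widest, the best with and without H3K4me3 and with H3K27me3, the genes with most regions, the widest gaps in place, the regions around the distance limit, and genes of 18 lists of known function, all 341 genes of which were matched by symbol. Genes with predicted symbols were counted, not named, and a few named regions are not reported here. Members and lists were chosen with earlier results of these data known. Alternatives were other distance limits, lists cut to equal length, other overlaps and other rankings. Python 3.11.15 with numpy 2.4.6, pandas 2.3.3, scipy 1.17.1 and matplotlib 3.10.9 was used, and the interval steps were checked on simulated data.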

Additional observations from a re-analysis of the deposited data

Results flagged for a closer look

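Merged H3K27ac regions present in all 4 lists also occurred outside chromosomes 1 to 19, X and Y, where no gene distance was measured: 18 such regions lay on 7 other sequences. For 3 classes of shared distal regions the median number of places gained in arid4b-delta over WT had opposite signs in the 2 lineages, and the difference was not tested. Regions with H3K4me3 in 1 to 3 libraries had medians of -13 in endoderm and 16 in mesoderm. Regions near an snRNA gene had -43 and 2. Regions with H3K4me3 in all 4 libraries and no start or small RNA gene nearby had 6.5 and -39.5.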

How the results depend on the processing

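Of 45 values under alternatives, 24 stayed near the values in the report (within the counting interval, or within 1.5 times for a count) and 21 did not; the cause was not tested unless stated. The share of regions with H3K4me3 in at least 1 list was 71.3% beyond 5000 bp, 76.6% with H3K27ac lists cut to equal length, 59.7% where the mark had to cover at least 50% of the region, 76.9% where it lay within 1000 bp and 66.9% with H3K4me3 lists of equal length. For H3K27me3 the last 3 settings gave 8.05%, 14.6% and 9.52%. H3K27ac lists of equal length gave a median width of 918.5 bp and H3K27me3 at 7.30%. The share of nearest genes with H3K27ac near either end in every list was 22.5% in that setting. The share of all genes in that setting is not given, so the lower value is not read as a change relative to all genes. Keeping the upper 50% of each list left 586 regions, and peaks of at least 300 bp left 572, since fewer peaks entered. Ranking by −log10 q gave a median worst rank of 54.1%. A window of 2500 bp around either gene end gave a share of 31.2% of nearest genes, with 22.1% of all genes. Leaving out 2 classes of regions was chosen after seeing the data. Without the low-fold regions H3K27me3 was at 7.74%. Without regions near a start or small RNA gene there were 903, with H3K4me3 at 63.6%, a median width of 833 bp, H3K27me3 at 15.3% and a median worst rank of 66.1%. No paired analysis was possible because each group has 1 library and the labels carry no replicate numbers. Depth cannot be read from the lists, so a missing peak does not show a missing mark.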
